A study of Canis lupus familiaris with 18 samples.

Results

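Long *H3K27ac* domains are stretches of the dog genome in which broad peaks of this histone mark, pooled over 6 animals, joined into 1 region of at least 20 kb. All deposited *H3K27ac* peaks of the 6 dogs on chromosomes 1 to 38 were merged where they overlapped or touched, and a merged region was kept if each of the 6 dogs had a peak in it and its length was 20 kb or more. Of 175766 merged regions, 47984 held a peak in all 6 dogs and 1864 were also long enough. The domains were therefore selected on the measured peaks themselves, so that their lengths, their *H3K27ac* coverage and their sharing among dogs are descriptions and were not tested against other regions.

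*ChIP-seq* was carried out on brainstem tissue (pons) of 6 male dogs, 12 to 16 years old, with 1 *E2F1* and 1 *H3K27ac* library per dog. In the ancestral group, 3 dogs carried on 1 allele the insertion of a transposable element (TE) in an intron of *GTF2I*, which is the ancestral state and is labelled ins. In the derived group, 3 dogs lacked the insertion on both alleles, labelled noins. Each dog was a separate animal, the ancestral group was heterozygous and so not a group homozygous for the insertion, and the pons is a mixture of neurons and glia whose shares were not measured.

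Acetylation of lysine 27 on histone H3 is placed on nucleosomes around active enhancers and promoters, and long uninterrupted stretches of it are known from genes that are highly active in a given cell type. In a bulk tissue, a long stretch can also be the sum of neighbouring elements used by different cells. *E2F1* is a transcription factor best known for promoters of genes of the cell division cycle and DNA synthesis, and it binds mainly in open chromatin. The peak lists hold positions, fold enrichment and q values but no reads, so the depth at a locus is unknown and a dog without a peak cannot be taken to lack the mark or the factor. In bulk tissue, fewer cells with a mark and less of the mark per cell cannot be told apart.

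The 1864 domains were 1.06% of all merged regions and 3.88% of those with a peak in all 6 dogs. They summed to 60.1 Mb, which was 13.5% of all merged length, 20.5% of the length of regions found in all 6 dogs, and 2.73% of the chromosome span between the outermost peaks. All 1864 merged regions of 20 kb or more held a peak in every dog, so the requirement of 6 dogs removed none of them. The other regions shared by all dogs were 17507 of 5 to 20 kb, with 154.9 Mb, and 28613 under 5 kb, with 78.4 Mb.

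Lengths were strongly skewed. The median domain was 27184 bp long, the middle 80% ran from 21031 to 49016 bp, and the longest reached 187420 bp. Between 20 and 30 kb there were 1129 domains (60.6%), followed by 382 from 30 to 40 kb, 244 from 40 to 60 kb, 97 from 60 to 100 kb and 12 of 100 kb or more. The 353 domains of 40 kb or more held 33.2% of all domain bases. The 20 kb limit did not fall in a gap of the length distribution. The 3 shortest domains were 20005, 20012 and 20020 bp long, and the 3 longest shared regions outside the limit were 19999, 19996 and 19990 bp long. Coverage by the peaks of single dogs ran from 36.7 to 99.9% in those 3 domains and from 42.4 to 99.7% in the 3 regions just outside.

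The domains took up a larger part of each list by bases than by peaks. In ancestral animals 1 to 3, 4.06, 6.78 and 6.05% of *H3K27ac* peaks lay in domains, and in derived animals 1 to 3 5.30, 5.03 and 4.89%. Of the bases under *H3K27ac* peaks, the domains held 17.8, 21.6 and 21.6% in the ancestral animals and 19.7, 20.9 and 19.2% in the derived animals. Ancestral dog 1 had the smallest share in both measures and also the longest list, with 138141 autosomal peaks against 96561 to 118156 in the others. Peaks inside domains had a median width of 3772 to 6415 bp per dog, against 1132 to 1326 bp elsewhere. Their median fold enrichment over the local background was 4.05 to 4.63, against 2.87 to 3.13 elsewhere. Of the 1000 peaks with the lowest q in each list, 16.4 to 21.4% lay in domains.

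Most bases of the domains were under a peak in each dog. Peaks covered 88.1, 77.6 and 83.5% of the domain bases in ancestral animals 1 to 3 and 84.3, 87.9 and 85.3% in derived animals 1 to 3. Ancestral dog 2 was lowest and ancestral dog 1 highest, so the range of the ancestral group enclosed that of the derived group. The ancestral mean was 83.1% ± 5.30 (SD, n = 3) and the derived mean was 85.9% ± 1.85 (SD, n = 3), a difference of 2.80 percentage points (exact two-sided permutation test over dogs, p = 0.5). With 3 dogs against 3, this test cannot give a p below 0.1. The shared regions of 5 to 20 kb were covered to 60.2 to 76.6% per dog.

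**Figure D1:**
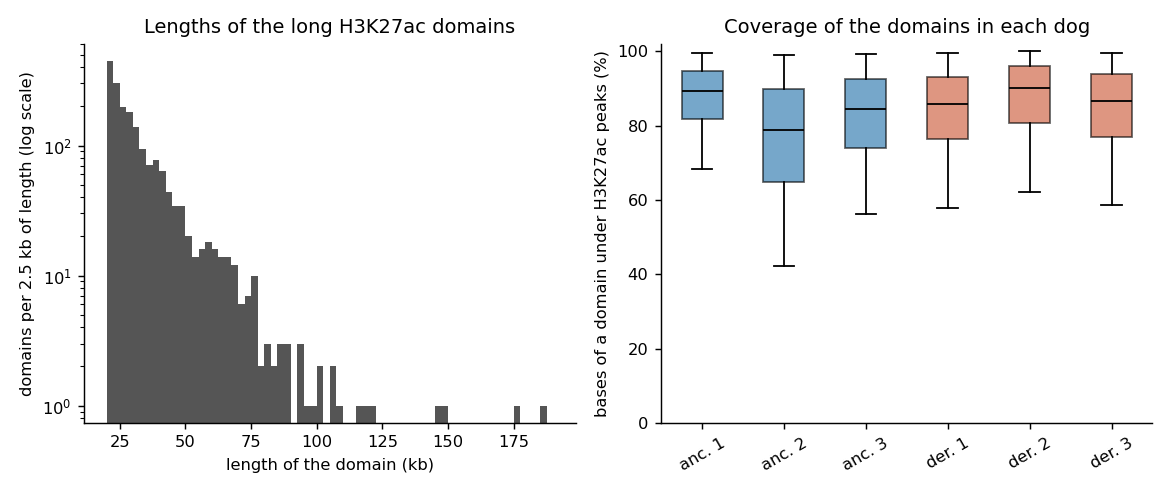
Left, number of domains by length in bins of 2.5 kb, on a logarithmic axis; right, percentage of each domain's bases under the *H3K27ac* peaks of each dog (anc., ancestral; der., derived), with boxes from the 25th to the 75th percentile, the median as a line and whiskers from the 5th to the 95th percentile over the 1864 domains. Lengths fall off steadily from 20 kb, and the median coverage is lowest in ancestral dog 2 (78.8%) and highest in derived dog 2 (90.2%).

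Single domains could be thinly covered in single dogs. Under 50% of the bases were covered in 12, 176 and 53 domains in ancestral animals 1 to 3 and in 52, 38 and 36 domains in derived animals 1 to 3. Over 90% were covered in 882, 462 and 610 domains in the ancestral animals and in 667, 946 and 730 in the derived animals. Ancestral dog 2 thus had the most thinly covered domains and the fewest that were nearly full. Counted base by base, 64.6% of domain bases were under a peak in all 6 dogs, 10.9% in 5, 7.36% in 4, 6.23% in 3, 5.57% in 2 and 5.31% in 1 dog only. In the median domain 63.7% of bases were covered in every dog. This common core was above 90% of the length in 115 domains and below 50% in 529, and 1 domain had no base covered in all 6 dogs.

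Coverage rose from the ends to the middle of the domains. In the outermost kb, 52.3 to 70.9% of bases were under a peak per dog, and the share was 68.3 to 84.2% from 1 to 2 kb inside. At more than 20 kb from either end it was 90.6 to 95.7%, but only domains of over 40 kb have such bases (5.84 Mb in all), so that position and domain length were not separated there. The merging itself lowers the outermost values, because the outer end of a merged region is set by whichever dog reached farthest.

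Single dogs seldom showed a domain as 1 unbroken peak. The mean number of peaks per domain was 3.01, 3.59 and 3.26 in ancestral animals 1 to 3 and 3.36, 2.61 and 2.98 in derived animals 1 to 3. The derived and ancestral ranges overlapped, and the means of 2.98 ± 0.377 and 3.28 ± 0.294 (SD, n = 3 each) differed by -0.304 peaks, derived minus ancestral (exact two-sided permutation test, p = 0.4). A single peak made up the domain in 310, 210 and 245 cases in the ancestral animals and in 260, 494 and 343 in the derived animals. Derived dog 2 stood highest in that count, with 26.5% of the domains, and had the fewest domains with 5 or more peaks (213), whereas ancestral dog 2 had the most (511). The longest peak of a dog spanned, in the median domain, 45.0 to 65.9% of the length.

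The interruptions were short. The median gap between neighbouring peaks inside a domain was 1323 to 1571 bp per dog, the 75th percentile was 1665 to 2362 bp, and the longest single gap was 13889 bp. Because broad peaks are called by joining nearby enriched stretches within a library, the number of peaks per domain is a count made after that step.

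The domains were a mixture of regions long in every dog and regions long only after merging. In 276 domains (14.8%), each of the 6 dogs had a single peak of 20 kb or more. In 513 domains (27.5%), no dog had such a peak, and the length of 20 kb arose only by joining peaks of different dogs. Another 497 domains had such a peak in 1 dog only, while 197, 131, 113 and 137 had it in 2, 3, 4 and 5 dogs. An unbroken stretch of 20 kb or more under the peaks of all 6 dogs existed in 241 domains (12.9%). In 39 domains every dog had exactly 1 peak, and in 922 no dog did.

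**Figure D2:**
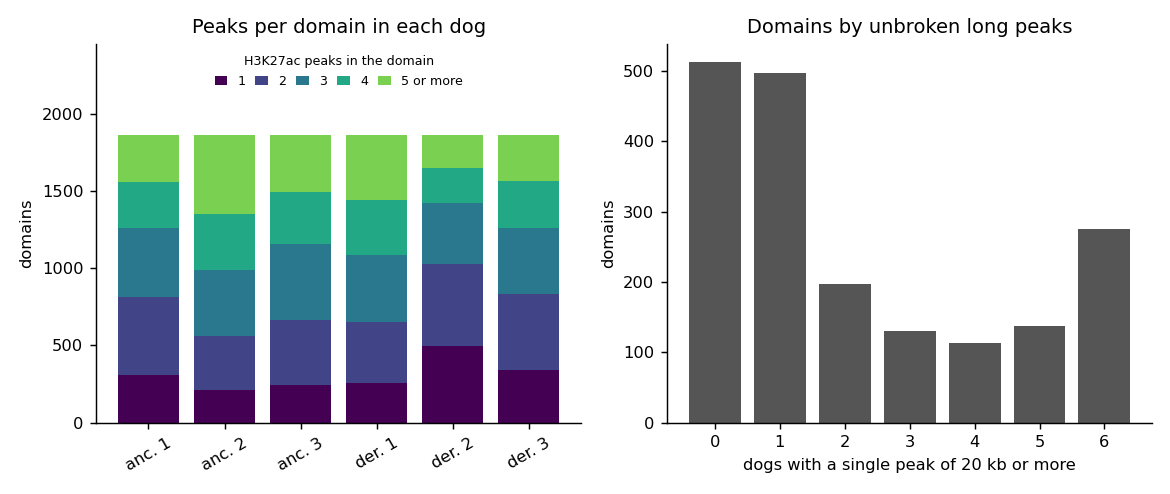
Left, the 1864 domains in each dog by the number of *H3K27ac* peaks of that dog in the domain; right, number of domains by how many of the 6 dogs had a single peak of 20 kb or more in it. Derived dog 2 has the most domains made of 1 peak (494) and ancestral dog 2 the most with 5 or more (511), and the counts at right are highest at 0 (513) and 1 dog (497), lowest at 4 dogs (113) and higher again at 6 (276).

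Longer domains were more completely covered and held fewer peaks per unit of length. From domains of 20 to 30 kb to those of 60 kb or more, the coverage of the median dog was 81.6, 84.4, 88.1 and 91.8% in the 4 length classes (20 to 30, 30 to 40, 40 to 60 and 60 kb or more). Peaks per domain rose with length, at 2.81, 3.31, 3.73 and 4.45 in the same order, whereas peaks per 10 kb of domain were 1.17, 0.966, 0.790 and 0.574.

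The 10 longest domains ran from 106 to 187 kb and differed in how they were built. The longest, chr9:32140408-32327827, was 187420 bp long. Its coverage was 95.2, 76.9 and 95% in ancestral animals 1 to 3 and 88.4, 92.2 and 88.6% in derived animals 1 to 3. Ancestral dog 2 was again lowest, with 20 peaks in the domain against 7 in each of the other ancestral animals and 9 to 16 in the derived animals.

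The next in length, chr9:41982162-42158600, was 176439 bp long and held 81 *H3K27ac* peaks summed over the dogs, the most of any domain. Its peaks numbered 9, 23 and 15 in the ancestral and 16, 7 and 11 in the derived animals. By contrast, chr5:15844104-15992547 (148444 bp) was covered to between 95.6 and 98.5% in every dog by 2 to 4 peaks, and in ancestral dog 1 a single peak of 140583 bp made up most of it. The domain chr3:48006133-48152250 (146118 bp) had 3 to 11 peaks and a coverage of 85.3 to 95.7%. The domain chr28:29485558-29607502 (121945 bp) had 2 to 4 peaks and a coverage of 96.2 to 99.0%.

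The remaining 5 of the 10 longest were chr20:8935448-9055445 (119998 bp), chr26:18574573-18690374 (115802 bp), chr6:26931357-27040565 (109209 bp), chr15:15704980-15811935 (106956 bp) and chr9:38271676-38378157 (106482 bp). The chromosome 20 domain was the most broken of these, with 5 to 13 peaks per dog and 65.6% of its bases covered in every dog. The chromosome 15 domain was the most uniform, with 1 or 2 peaks per dog and 97.8% of its bases covered in every dog. Among the 39 domains made of 1 peak in each dog, the longest was chr25:30893673-30970232 (76560 bp), where the single peaks measured 74168 to 76560 bp and the core common to all dogs was 74105 bp without a break.

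The domains were spread unevenly over the chromosomes. The autosomes held 8.47 domains per 10 Mb of span, with a median over chromosomes of 7.33. Chromosome 9 stood highest, with 166 domains, 27.2 per 10 Mb, which covered 9.71% of its span. Chromosomes 26, 20, 24 and 6 followed with 17.2, 16.2, 16.2 and 14.05 per 10 Mb. These 5 densest chromosomes made up 12.9% of the span and held 27.5% of the domains. The lowest densities were 2.06 on chromosome 32, 2.16 on chromosome 29 and 2.76 on chromosome 31.

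Chromosomes with many long domains also had many shared regions of 5 to 20 kb. Over the 38 chromosomes, the densities of both had a Pearson's r of 0.905 and a Spearman's rho of 0.871, a description over chromosomes that share the same 6 dogs and the same lists. For every 100 regions of 5 to 20 kb there were 18.1 domains on chromosome 9, 14.9 on chromosome 6 and 14.8 on chromosome 28, compared with 5.30 on chromosome 32 and 5.52 on chromosome 7. Along the length of the chromosomes, the domains showed no strong preference, with 24.8, 23.3, 26.4 and 25.5% of them in 4 equal parts of the span by rising coordinate. The regions of 5 to 20 kb had 25, 23.2, 25.5 and 26.4%.

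Domains lay close to each other. The median distance between neighbouring domains was 180.1 kb, and 471 domains (25.3%) had another within 10 kb, 1197 (64.2%) within 100 kb and 1702 (91.3%) within 1 Mb. The shortest distance was 23 bp, so that some neighbours are separate only because no dog's peak bridged the gap. Of 2220 windows of 1 Mb, 1447 (65.2%) held no domain, and the 100 windows with 5 or more domains (4.5% of windows) held 598 domains (32.1%). The variance of the count per window was 2.82 times its mean of 0.840.

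The windows with most domains lay on chromosomes 9 and 20. From 55 to 56 Mb on chromosome 9 there were 12 domains of 20337 to 76050 bp, which together spanned 422.9 kb. From 44 to 45 Mb on chromosome 20 there were 11 domains with 366.5 kb. From 5 to 6 Mb on chromosome 9 there were 10 with 278.1 kb, and 1 other window also held 10. In the first of these windows, coverage was 91.3, 72.0 and 80.7% in the ancestral animals and 85.2, 91.8 and 83.0% in the derived animals, with ancestral dog 2 again lowest. Chains of domains less than 100 kb apart numbered 438, of which 34 had 5 or more members. The chain with most members had 9, at chr9:55802913-56383650, with 380808 bp of domain in 580.7 kb.

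**Figure D3:**
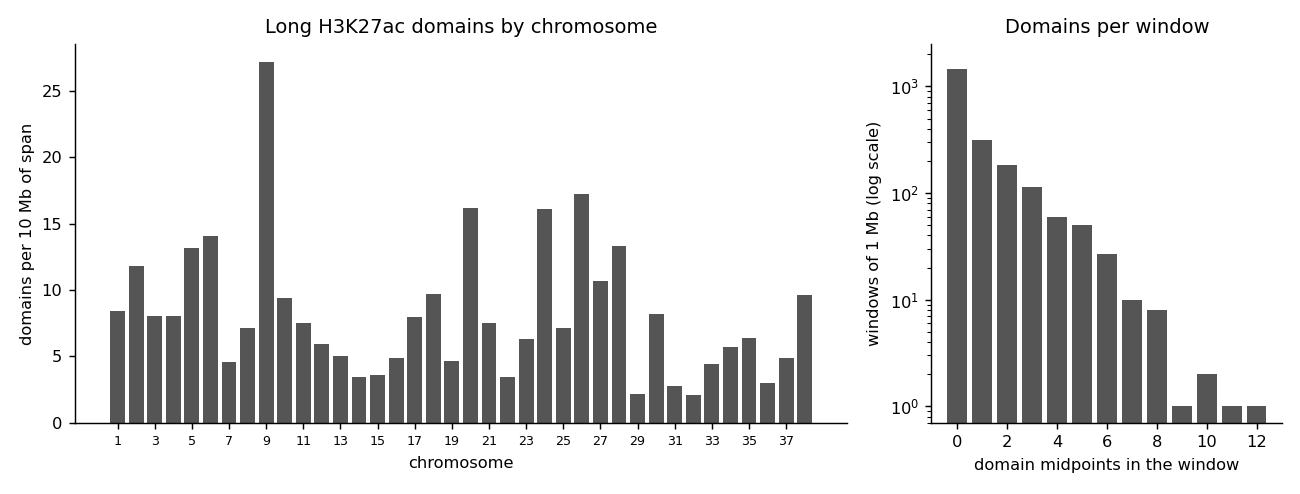
Left, long *H3K27ac* domains per 10 Mb of each chromosome's span between its outermost peaks; right, number of 1 Mb windows by the number of domain midpoints in them, on a logarithmic axis. Chromosome 9 stands above all others at 27.2 per 10 Mb, and most windows hold no domain (1447 of 2220) whereas 1 window holds 12.

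Over the set of domains, the genotype difference in coverage was smaller than the spread between dogs. The coverage of a domain was higher in derived than in ancestral animals, by the group means, in 1303 domains and lower in 560, with a median difference of 2.57 percentage points. Single dogs moved the difference over all domain bases, which was 2.80 percentage points with all dogs. It was 0.0419 without ancestral dog 2, the dog with the lowest coverage. Without ancestral dog 1, the dog with the highest, it was 5.33 (exact permutation test, p = 0.1, the smallest this test can give). In 1094 domains (58.7%) the group means lay within 5 percentage points, and in 35 they differed by more than 20. Such counts were not made for the other shared regions, so they cannot be called particular to the domains. Over all bases of the shared regions of 5 to 20 kb, the difference had the same direction, at 3.96 percentage points (exact permutation test, p = 0.6).

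In 101 domains (5.42%), the coverage in each derived dog was above that in each ancestral dog, close to the 5.33% of all 47984 regions shared by the 6 dogs. The reverse was seen in 30 domains (1.61%), compared with 2.39% of all shared regions. The counts also moved with single dogs. Without ancestral dog 1, they were 422 and 64, and without ancestral dog 2, 147 and 109. The shares over all shared regions were not computed with a dog left out.

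The 3 domains with the largest differences in each direction were 20172 to 27831 bp long. The domain chr7:53762523-53782694 (20172 bp) was covered to 44.5, 90.9 and 37.3% in ancestral animals 1 to 3 and to 12.5, 12.1 and 31.8% in derived animals 1 to 3. It was the only domain with no base covered in all 6 dogs, and it held 1 *E2F1* peak with a q below 0.0005 over all dogs. The longest *H3K27ac* peak in it, from ancestral dog 2, measured 15759 bp against 1498 to 4610 bp in the others. The domain chr6:26805168-26832998 (27831 bp) was covered to 91.2, 87.1 and 75.9% in ancestral and 46.5, 44.7 and 66.8% in derived animals. The domain chr26:19943886-19968799 (24914 bp) was covered to 72.1, 98.8 and 78.6% in ancestral and 45.8, 64.5 and 47.9% in derived animals.

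In the other direction, chr2:41083549-41105136 (21588 bp) was covered to 60.8, 56.1 and 71.6% in ancestral and 99.9, 94.1 and 79.4% in derived animals. The domain chr19:23944095-23965775 (21681 bp) was covered to 55.8, 64 and 68.6% in ancestral and 99.2, 84.8 and 79.3% in derived animals. The domain chr13:4317466-4343764 (26299 bp) was covered to 57.6, 51.5 and 75.4% in ancestral and 76.0, 87.5 and 95% in derived animals, where the highest ancestral and the lowest derived value were nearly equal. These 6 domains were picked for the size of their differences, which were not tested.

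Of the region around *GTF2I* on chromosome 6, between 5.6 and 6.4 Mb, 3 domains were part of the set. *GTF2I* encodes the transcription factor TFII-I. The first domain, chr6:5731157-5760835 (29679 bp), contained the whole of exons 5 to 19 of the 34 exons of *GTF2I*, as numbered by rising coordinate. It also held the lower-coordinate part of exon 20 and the site of the TE insertion. The paper places intron 1 at higher coordinates than this domain, so these numbers run against the direction of the gene. Coverage of the domain was 76.9, 62.3 and 77.2% in ancestral animals 1 to 3 and 92.1, 68.2 and 92.8% in derived animals 1 to 3. Derived dogs 1 and 3 were higher than the ancestral animals, whereas derived dog 2 fell among them, so the groups overlapped. Of *E2F1* peaks with a q below 0.0005, placed by summit, it held 0, 3 and 0 in the ancestral animals and 0, 1 and 1 in the derived animals. Deposited *E2F1* peaks above that q were not counted there. Reads that map to several places were kept in the alignments, and how this bears on peaks at a transposable element was not tested.

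The other domains of that interval were chr6:5847579-5885451 (37873 bp), covered to 89.5, 61.7 and 73.9% in ancestral and 80.5, 99.97 and 76.7% in derived animals, and chr6:6101852-6125363 (23512 bp), covered to 97.2, 75.4 and 71.6% in ancestral and 76.8, 87.2 and 72.2% in derived animals. The groups overlapped in both domains.

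The positions of *E2F1* peaks were not used to choose the domains, but both precipitations of a dog came from the same chromatin sample. The paper describes its *E2F1* tracks as noisier than usual. It also cautions that binding sites of this factor may have been missed, given low cross-correlation scores. A peak was placed by its summit, and peaks with a q below 0.0005 were used. The domains held 2879, 4494 and 5623 *E2F1* peaks in ancestral animals 1 to 3 and 1403, 7773 and 2819 in derived animals 1 to 3. These were 9.30, 10.9 and 11.2% of the *E2F1* peaks of the ancestral animals and 7.40, 12.3 and 7.95% of those of the derived animals. The density was 47.9, 74.8 and 93.5 peaks per Mb of domain in the ancestral and 23.3, 129.3 and 46.9 in the derived animals. The lowest and the highest density both belonged to derived animals. Derived dogs 1 and 2 also had the fewest (18947) and the most (63306) *E2F1* peaks below that q threshold. Before the threshold, the deposited autosomal lists held 107268 and 160157 peaks in these dogs, and the shortest was that of ancestral dog 2 (84014). The mean densities, 72.1 ± 22.9 in ancestral and 66.5 ± 55.6 in derived animals (SD, n = 3 each), differed by -5.55 peaks per Mb (exact two-sided permutation test, p = 0.9). This difference changed sign without ancestral dog 3 (5.19), derived dog 1 (16.0) or derived dog 3 (4.26).

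Compared within each dog, *E2F1* peaks were denser in domains than on bases outside all merged *H3K27ac* regions. Outside all *H3K27ac* regions the density was 6.01 to 15.0 peaks per Mb. In domains it was 5.55, 7.61 and 7.12 times as high in the ancestral animals and 3.88, 8.61 and 4.35 times as high in the derived animals, a mean log2 ratio of 2.57 ± 0.46 (SD, n = 6 dogs). All 6 dogs had a higher density in domains (two-sided exact sign-flip permutation test over dogs, p = 0.031, the smallest that 6 dogs can give, and 0.031 for each of the 5 within-dog comparisons after Benjamini-Hochberg adjustment). The ratio did not differ between the genotypes beyond the spread of the dogs, with a difference of -0.35 on the log2 scale (exact permutation test, p = 0.4).

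The excess over other shared regions was much smaller. The shared regions under 20 kb held 40.5, 64.9 and 72.4 *E2F1* peaks per Mb in the ancestral animals and 19.8, 98.2 and 42.7 in the derived animals. The domains were denser by factors of 1.18, 1.15 and 1.29 in the ancestral animals and 1.18, 1.32 and 1.10 in the derived animals, a mean log2 ratio of 0.26 ± 0.10 (SD, n = 6; higher in 6 of 6 dogs; two-sided exact sign-flip permutation test, p = 0.031). Against the regions of 5 to 20 kb alone the mean log2 ratio was 0.27 ± 0.08, and against those under 5 kb it was 0.25 ± 0.14, also higher in 6 of 6 dogs.

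The ratio depended on which bases were counted. The shared regions under 20 kb were covered by a dog's own *H3K27ac* peaks to 59.7 to 74.5%, less than the domains in every dog. Counted per Mb under the dog's own *H3K27ac* peaks, in place of all bases of the region, the domains were denser by factors of 1.10, 1.03 and 1.13 in the ancestral and 1.10, 1.13 and 1.04 in the derived animals (mean log2 ratio 0.12 ± 0.06, SD, n = 6; exact sign-flip permutation test, p = 0.031). Counted only on bases covered in all 6 dogs, of which the domains held 38.9 Mb and the shorter regions 88.4 Mb, the ratio was 0.956, 0.888 and 1.01 in the ancestral and 0.982, 1.03 and 0.878 in the derived animals. Its mean log2 value was -0.06 ± 0.10, higher than 0 in 2 of 6 dogs (exact sign-flip permutation test, p = 0.1875). Both of these counts were added after the first ratio had been seen. On these bases, the domains were the less dense class in 4 of 6 dogs.

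The excess also depended on which *E2F1* peaks were counted. With a q below 1e-10, the domains held 133, 487 and 868 peaks in the ancestral and 31, 819 and 199 in the derived animals, and the mean log2 ratio over shared regions under 20 kb was -0.03 (exact sign-flip permutation test, p = 0.75). Against the regions under 5 kb alone it was -0.30 (exact sign-flip permutation test, p = 0.031), so that these strongest peaks were less dense in the long domains than in the shortest shared regions. Against the regions of 5 to 20 kb it was 0.14 (exact sign-flip permutation test, p = 0.2812).

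**Figure D4:**
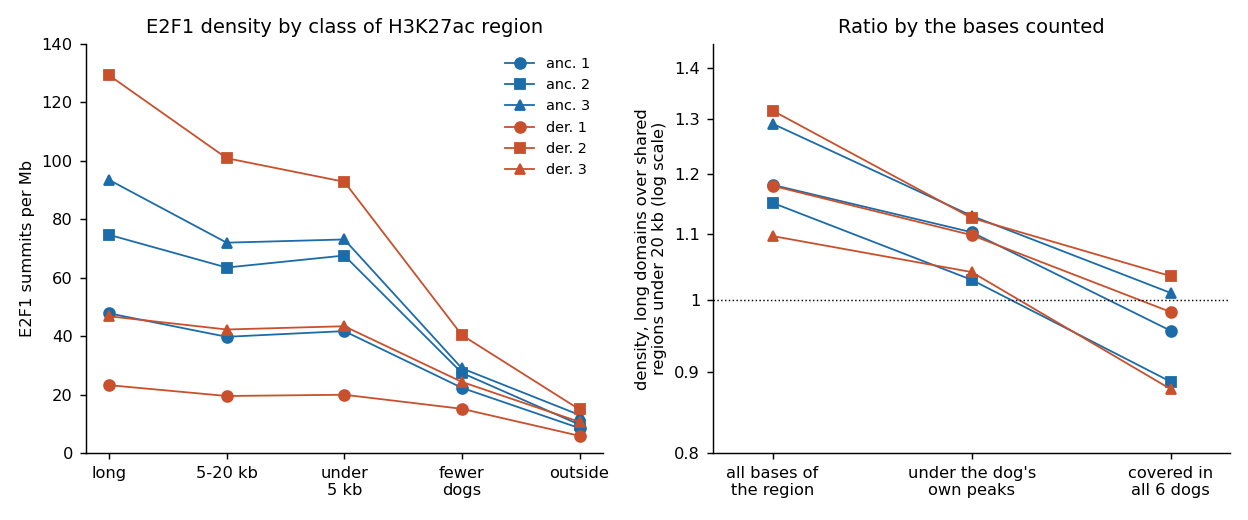
Left, *E2F1* summits per Mb in each dog for the long domains, shared regions of 5 to 20 kb, shared regions under 5 kb, merged *H3K27ac* regions found in fewer than 6 dogs, and bases outside all *H3K27ac* regions; right, the density in long domains divided by that in shared regions under 20 kb, on a log scale, for 3 ways of counting bases, with 1 line per dog and a dotted line at a ratio of 1. The lines at right fall from 1.10 to 1.32 over all bases to 0.878 to 1.03 on bases covered in all 6 dogs.

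Within the domains, *E2F1* peaks lay on acetylated bases more than the coverage alone would place there. Of the *E2F1* summits inside domains, 92.5, 85.6 and 90.8% in the ancestral and 88.3, 96.8 and 86.6% in the derived animals fell under an *H3K27ac* peak of the same dog. These shares exceeded the covered share of the domain bases by 4.40, 8.02 and 7.23 percentage points in the ancestral and 3.96, 8.84 and 1.28 in the derived animals (mean 5.62 ± 2.89, SD, n = 6; two-sided exact sign-flip permutation test, p = 0.031). Derived dog 3 had the smallest excess. With *E2F1* peaks of q below 1e-10 the mean excess was 3.77 percentage points and no longer passed (exact sign-flip permutation test, p = 0.1875). On domain bases not under a dog's own peaks, the density was 30.1, 48.0 and 52.5 *E2F1* peaks per Mb in the ancestral animals. It was 17.4, 34.7 and 42.8 in the derived animals. In each dog this was above the density outside all *H3K27ac* regions. By the merging, such bases lie under an *H3K27ac* peak of at least 1 other dog.

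The density followed the number of dogs in which a base was acetylated only at its upper end. On domain bases under a peak in all 6 dogs, the *E2F1* density of the median dog was 73.9 peaks per Mb. On bases covered in 1 to 5 dogs it was 48.8, 37.6, 36.6, 36.0 and 40.2. Each of the 6 dogs had its highest density on the bases covered in all 6. By distance from the ends, the dogs varied in *E2F1* density. From the outermost kb to more than 20 kb inside, it went from 46.7 to 47.3, from 66.3 to 70.1 and from 90.7 to 100 peaks per Mb in ancestral dogs 1, 2 and 3. In derived dogs 1, 2 and 3 it went from 19.3 to 23.5, from 120 to 132 and from 48.3 to 38.4. Thus, of the outermost and innermost steps alone, the innermost was higher in 5 dogs and lower in derived dog 3, whereas *H3K27ac* coverage rose over the same distance in every dog. The steps between were uneven. From 10 to 20 kb inside, derived dog 3 had 49.2 and ancestral dog 2 had 76.4 peaks per Mb, both above their innermost values. Bases more than 20 kb inside come only from domains of over 40 kb.

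**Figure D5:**
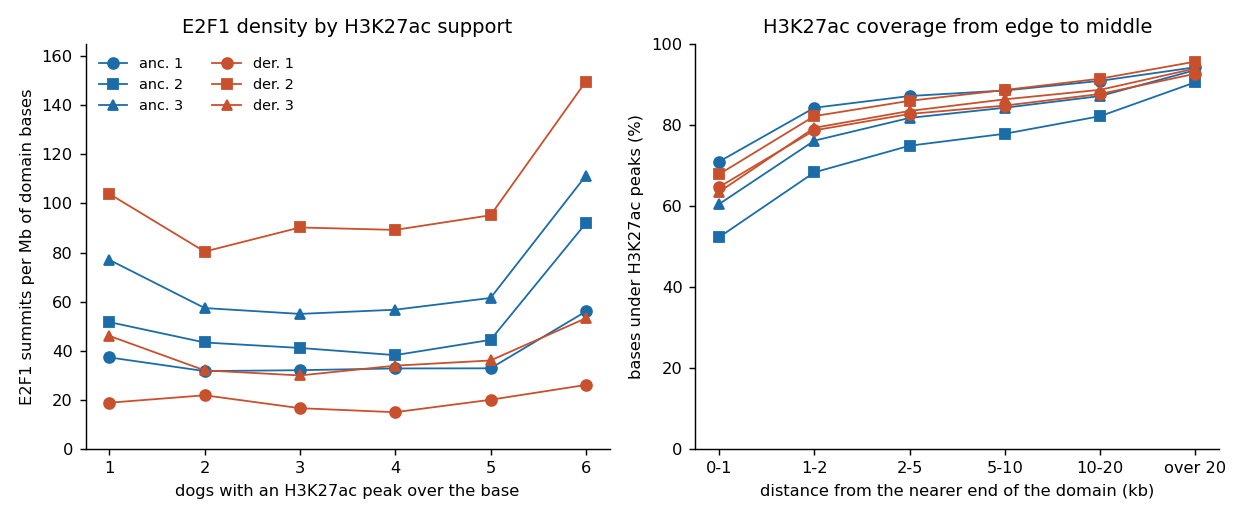
Left, *E2F1* summits per Mb of domain bases in each dog, by the number of dogs with an *H3K27ac* peak over the base; right, percentage of domain bases under *H3K27ac* peaks by distance from the nearer end of the domain, in steps of unequal width. Each dog has its highest *E2F1* density at 6 dogs, and coverage rises in each dog from 52.3 to 70.9% in the outermost kb to 90.6 to 95.7% beyond 20 kb.

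The *E2F1* density showed no steady rise with domain length. In the 4 length classes from 20 to 30 kb to 60 kb or more, it was 46.1, 51.2, 50.1 and 45.5 peaks per Mb in ancestral dog 1, 74.5, 75.7, 81.5 and 65.0 in ancestral dog 2, and 88.0, 97.2, 101.1 and 95.2 in ancestral dog 3. It was 23.6, 24.7, 22.6 and 21.4 in derived dog 1, 124, 136, 139 and 123 in derived dog 2, and 45.7, 50.9, 46.5 and 45.2 in derived dog 3. Domains of 60 kb or more were below those of 20 to 30 kb in 5 dogs and above them in ancestral dog 3, and in each dog the highest class was 1 of the 2 in between. The peaks inside domains had a median fold enrichment of 4.92 to 5.49 per dog, against 4.98 to 5.51 in the shorter shared regions, and a median width of 301 to 392 bp against 298 to 378 bp. In each dog but derived dog 1 the fold enrichment was thus slightly lower, and in all 6 dogs the width slightly greater, in domains.

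Most domains held *E2F1* peaks in several dogs, but at different positions. At least 1 peak was found in 1312, 1504 and 1582 domains in the ancestral and 911, 1633 and 1293 in the derived animals. In 499 domains (26.8%) all 6 dogs had a peak, in 545 there were 5 dogs, in 374 there were 4, and in 19 domains none had any. When overlapping or touching *E2F1* peaks were joined across dogs into sites, the domains held 16805 sites, of which 12459 (74.1%) were found in 1 dog and 95 (0.565%) in all 6. The 95 sites lay in 83 domains. The shares found in all 6 dogs were 0.795% of the sites in shared regions of 5 to 20 kb, 1.08% in those under 5 kb and 0.379% outside *H3K27ac* regions. Sites found in at least 2 dogs were 25.9% in domains, 24.7 and 27.7% in the shorter shared classes and 11.5% outside.

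The domain with most *E2F1* peaks over the dogs was chr28:29485558-29607502, with 94. Its peaks numbered 14, 13 and 24 in the ancestral and 4, 31 and 8 in the derived animals. The next were chr1:114358995-114447618 (88624 bp) with 92, chr20:49124097-49197910 (73814 bp) with 85, chr9:41982162-42158600 with 83 and chr9:55423712-55480681 (56970 bp) with 75. The chromosome 1 domain had 9, 13 and 25 peaks in the ancestral and 0, 33 and 12 in the derived animals, so that derived dog 1 had none in a domain where derived dog 2 had its own maximum. The chromosome 20 domain had 13, 9 and 26 in the ancestral and 3, 21 and 13 in the derived animals. Derived dog 1, with the fewest *E2F1* peaks below the q threshold, was lowest in each of these but chr9:41982162-42158600. There, ancestral dog 1 and derived dog 3 had 7 and derived dog 1 had 8.

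By genotype, the *E2F1* count of a domain was higher in every ancestral dog than in every derived dog in 30 domains (1.61%, against 0.427% of all shared regions) and higher in every derived dog in 7 (0.376%, against 0.179%). A region needs at least 1 peak in each dog of the higher group to be counted, and the shares rose with length. Ancestral-higher and derived-higher regions were 0.697 and 0.354% of the shared regions of 5 to 20 kb and 0.185 and 0.0594% of those under 5 kb. With all deposited *E2F1* peaks in place of those under the q threshold, 13 domains were higher in the ancestral and 45 in the derived animals, which turned the split around. Without derived dog 2, the counts were 310 and 14, and without derived dog 1, 38 and 68. The direction therefore moved with the *E2F1* threshold and with the lists of single dogs. For these alternatives the shares over all shared regions were not computed, so the domains cannot be set against them.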

How the data were processed

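Per the labels, the series held 18 samples: 6 *H3K27ac*, 6 *E2F1* and 6 input libraries, the last not used here. The authors aligned trimmed reads to CanFam3.1 with multi-mapped reads retained, dropped duplicates by molecular identifier and called peaks per dog with MACS2, broad for *H3K27ac* and narrow for *E2F1*. The submitters' processing notes name Trim Galore 0.0.6, Bowtie 1.1.2 and MACS2 2.2.0. The paper's supplementary methods name a different Bowtie version, and which of them gave the deposited lists could not be told. Whether input entered the calls is not given in the sources used here. The deposited lists give positions and summits, a deposited score (not used), the authors' fold enrichment, a ratio to the local background, and deposited −log10 p and −log10 q values, averaged over a broad peak. Fold and q were used only within a list. The lists hold neither normalization between dogs nor the authors' later removal of input-enriched peaks.

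Every listed *H3K27ac* peak on chromosomes 1 to 38 entered the merging. *E2F1* peaks with q below 0.0005 were placed by summit. Sums per dog were compared between 3 and 3 dogs with exact two-sided permutation tests of the difference in means (smallest p 0.1), and within 6 dogs with exact two-sided sign-flip permutation tests over 64 sign assignments (smallest p 0.031). Counts of regions whose dogs did not overlap between genotypes have no test. Coordinates are 1-based on CanFam3.1, and exons are those in the study's exon list of *GTF2I*. Depth is unknown from peak lists, so no counting interval was given. The merging, coverage and density steps were tested on simulated data. Python 3.11.15 with numpy 2.4.6 and pandas 2.3.3 was used.

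Named domains are the 10 longest, the 5 with most *E2F1* peaks, the 3 per direction with the largest coverage difference without overlap, 3 on either side of the length limit, those with fewest and most peaks, the 3 richest windows and those near *GTF2I*. The members and this rule were chosen with earlier results of these data known. Alternatives were other q thresholds, lengths of 15 and 30 kb, a peak in at least 5 dogs, a single long peak, gaps of 1 kb bridged, equal numbers of peaks per dog, overlap of 1 bp in place of the summit, *E2F1* peaks of over 100-fold left out, omission of each dog, and pairing by replicate number. No annotation of CanFam3.1 was used, so genes other than *GTF2I* and cell type markers were not examined.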

Additional observations from a re-analysis of the deposited data

Results flagged for a closer look

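Chromosome X lay outside the choice of domains, which was made on the autosomes. Merged in the same way, it held 29 regions of 20 kb or more with a peak in all 6 dogs, a total of 0.888 Mb, with a median of 24565 bp and a longest region of 87068 bp. Their density of 2.34 per 10 Mb was below that of 36 of the 38 autosomes. All 6 dogs were male and so had a single copy of X, and how this bears on the comparison was not tested.

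Each of 64 measures per dog of the domains and the lists was examined for a dog that stood apart from the other 5 by Dixon's 95% critical value, a rule by which chance marks about 1 group in 20. In 3 measures a dog did, about as many as that rate gives. Ancestral dog 2 had 176 domains with under 50% of bases covered, against 12 to 53 in the others. Derived dog 2 had 86 domains covered over their whole length, against 4 to 13, and a median of 2 *H3K27ac* peaks per domain, against 3 in each of the others. This median was taken as a whole number, so that any dog differing alone would have been marked.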

How the results depend on the processing

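The number of domains was 3287 with a minimum length of 15 kb and 735 with 30 kb. It was 1856 from peaks with q below 0.05, 1574 with q below 1e-05, 1864 with a peak in at least 5 dogs, 1351 with a single peak of 20 kb or more in at least 1 dog, 2141 with gaps of up to 1 kb bridged, and 1599 to 1790 with 1 dog left out of the merging.

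With each dog left out in turn, the exact sign-flip test over 5 dogs cannot give a p below 0.0625, so no such test passed. The mean log2 density ratio then ran from 0.24 to 0.29 over other shared regions and from 2.46 to 2.69 over bases outside *H3K27ac* regions. The excess on acetylated bases ran from 4.98 to 6.49 percentage points. With q below 1e-10, this excess was 3.77 (exact sign-flip permutation test, p = 0.1875). The mean log2 ratio over other shared regions was then -0.0307, and that over regions under 5 kb was -0.30. Per Mb covered in all 6 dogs, a count added after seeing the data, the mean log2 ratio over other shared regions was -0.0643. The mean log2 ratio over regions under 5 kb also missed the threshold with equal numbers of *E2F1* peaks per dog (0.16, p = 0.0625) and with 1 bp of overlap (0.08, p = 0.1875; exact sign-flip permutation tests).

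The genotype difference in *E2F1* peaks per Mb was 17.7 with all deposited peaks, and ran from -36.9 without derived dog 2 to 16.0 without derived dog 1, 5.19 without ancestral dog 3 and 4.26 without derived dog 3. Coverage and peaks per domain kept the sign of their difference in all alternatives run. With dogs paired by number (replicate block, smallest p 0.25), the differences were 2.80, -0.304 and -5.55 with exact p of 0.75, 0.75 and 1, and no call changed. The numbers were not taken to pair the dogs, because not every same-numbered pair deviated together. Over domains, replicates 1 to 3 had correlations of -0.077, -0.308 and -0.124 for coverage and 0.408, 0.0516 and -0.216 for *E2F1*.

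Domains without overlap between genotypes ranged, with 1 dog left out, from 147 to 422 and from 58 to 109 for coverage (derived and ancestral higher), and from 14 to 68 and from 38 to 310 for *E2F1*. With all deposited *E2F1* peaks they were 45 and 13. No share over all shared regions was computed under these alternatives. A comparison of 2 dogs against 3 has fewer dogs to overlap. The causes of the other changes were not tested. Peak lists limit all values, since a dog's unlisted signal is not seen.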
